A study of Mus musculus with 12 samples.

Results

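The genes described here are the 7 that encode the core of MHC class II antigen presentation in the mouse: the invariant chain Cd74, the class II chains H2-Aa, H2-Ab1 and H2-Eb1, the peptide editor subunits H2-DMa and H2-DMb1, and the class II transactivator Ciita. They were found by symbol among the 23382 rows of the deposited table, whose row names are RefSeq transcripts, and each matched 1 row. The set was selected on results of these data: Cd74 was known to have one of the smallest p-values in mutant THC against mutant vehicle libraries and in mutant vehicle against control vehicle libraries. Values of the 7 genes in those comparisons, and in the interaction built from them, are therefore given as a description, and the calls made there are printed only beside the share of all genes called. For mutant THC against control THC and control THC against control vehicle adjusted p-values are given, but each of these reuses libraries of the comparisons that chose the genes and is not independent of that choice. In GRCm38.p6, Cd74 lies on chromosome 18 from 60803849 to 60812652 and Ciita on chromosome 16 from 10480014 to 10531064.

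Class II molecules are pairs of an alpha and a beta chain that carry peptides made in endosomes to the cell surface, where CD4 T cells read them. The invariant chain blocks the peptide groove of new pairs and steers them to the endosome, where proteases cut it down to a short remnant and DM exchanges that remnant for peptides. CIITA binds no DNA itself and acts through RFX, CREB and NF-Y proteins on the promoters of these genes, and interferon gamma is its best known inducer. In healthy brain, microglia carry little class II, and macrophages and dendritic cells of the vessels, meninges and choroid plexus carry more.

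The libraries were made from hippocampal total RNA after removal of ribosomal RNA, from mice on a C57BL/6 background, with 3 libraries in each of 4 groups: DISC1 mutant mice given Δ9-THC, DISC1 mutant mice given vehicle, control mice given Δ9-THC and control mice given vehicle. THC is the main psychoactive compound of cannabis, DISC1 is an intracellular scaffold whose gene has been tied to mental illness in a family, and the labels call the mutants aDN-DISC1, while the title speaks of a vulnerability specific to astrocytes and of exposure in adolescence. The labels give neither the promoter behind the mutant protein nor age, sex, dose, litter or batch, and no genotype entry is given for control libraries, whose titles name them. Total expected counts were between 33165903 and 41389957 per library. Disc1 itself was at 1.42 to 3.04 CPM (counts per 1000000 in a library after TMM scaling) over the 12 libraries, and since a transgene need not be counted under that row, this does not check the genotype labels. All 6 hippocampal markers were detected in every library, with a summed level of 399.9 to 688.7 CPM. Tissue of other brain parts was detected unevenly. Choroid plexus markers summed to at least 4974 CPM in mutant THC 1 and 3, in all 3 mutant vehicle libraries and in control THC 2, and to at most 407.9 CPM in the other 6 libraries, and striatal markers summed to 2942 CPM in mutant THC 3 and 367.8 CPM in mutant vehicle 3, against 72.19 to 111.4 CPM elsewhere. The numbers in the library names run from 6 to 11 in vehicle libraries and lie outside that span in THC libraries, so library order and treatment cannot be told apart.

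Class II promoters carry an X box, which RFX binds, followed by a Y box, which NF-Y binds, and the stretch that holds both is shown because it is the element these genes share. Promoter windows from RefSeq on GRCm38.p6, each running from 250 bases before to 50 bases after a start, were in the table for 4 of the 7 genes, and 3 of the 4 held a short X core and a Y core on the coding strand. H2-Aa lies on chromosome 17 from 34282744 to 34287823, H2-Eb1 from 34305867 to 34316674 and H2-DMb1 from 34153191 to 34160229. The stretches printed are chr17:34287827-34287944 on the minus strand for H2-Aa, chr17:34305736-34305852 on the plus strand for H2-Eb1 and chr17:34153057-34153174 on the plus strand for H2-DMb1. Capitals mark the short X core, GNAACT, and the Y core, GATTGG.
H2-Aa: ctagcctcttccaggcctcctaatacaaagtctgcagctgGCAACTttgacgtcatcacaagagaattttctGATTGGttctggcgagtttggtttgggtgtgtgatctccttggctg
H2-Eb1: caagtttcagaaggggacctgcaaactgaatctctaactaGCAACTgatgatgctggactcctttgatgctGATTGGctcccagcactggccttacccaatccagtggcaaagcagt
H2-DMb1: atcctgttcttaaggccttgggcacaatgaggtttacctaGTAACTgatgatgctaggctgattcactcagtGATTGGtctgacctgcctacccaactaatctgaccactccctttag
The cores were 26 bases apart in H2-Aa and H2-DMb1 and 25 bases apart in H2-Eb1. Among 32851 promoter windows of the same length, 0.304% held the short X core 15 to 35 bases upstream of the Y core on the same strand, an arrangement that was chosen after the sequences had been read. A longer X core, AGNAACNNA, was searched on both strands and was in 16.9% of all windows. It was found in those of H2-Eb1 and H2-DMb1 and not in that of H2-Aa. The Y core was in 16.1% of all windows on either strand. Neither window of H2-DMa, which has 2 starts in the table, held the short X core with the Y core in this arrangement. These windows, 34122582 to 34122881 and 34125268 to 34125567, lie inside the gene's span of 34119693 to 34139101. Whether either covers the start of the transcript counted was not checked, so they do not show that H2-DMa lacks the element. A match of letters is a description of the window, not a measured binding site.

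**Figure D1:**
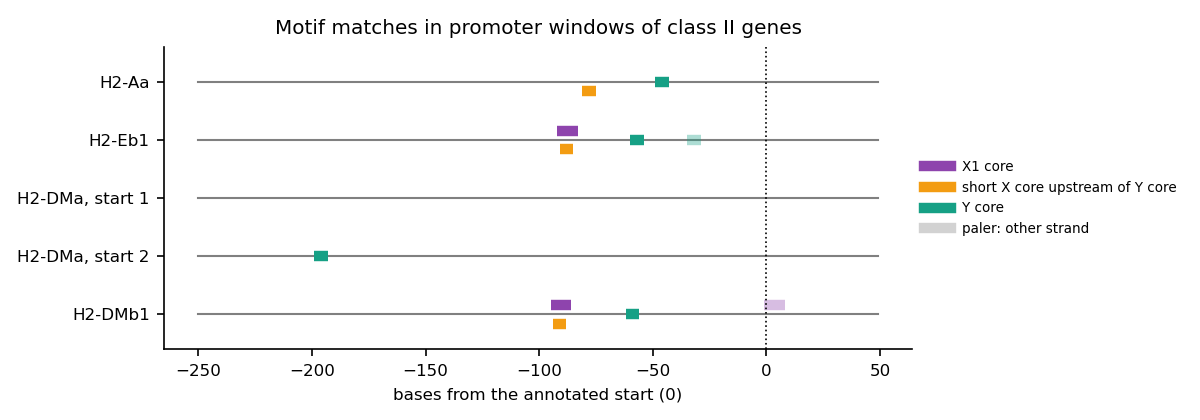
Positions of the longer X core (X1 core in the legend), the short X core and the Y core in the promoter windows of H2-Aa, H2-Eb1, H2-DMa and H2-DMb1, in bases from the start (x axis), with 1 line per window, a dotted line at the start and matches on the other strand in paler colour. The windows of H2-Aa, H2-Eb1 and H2-DMb1 hold a short X core 25 or 26 bases upstream of a Y core, and those of H2-DMa do not.

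In mutant mice, Cd74 and the class II chains were lower in THC than in vehicle libraries, by 2.24-fold to 2.66-fold. The groups did not overlap, which held for 4.4% of all genes in that direction. In the vehicle libraries, the same genes were 2.62-fold to 3.3-fold higher in mutant than in control mice. This was again without overlap, which held for 15.3% of all genes in that direction. Ciita lay the same way at counts of 15 or fewer per library, H2-DMb1 in part, and the groups overlapped for H2-DMa. For Cd74 and the chains, the group mean of mutant THC was below that of control THC and the mean of control THC above that of control vehicle. None of the 7 genes passed edgeR's test after adjustment in any of these comparisons.

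Cd74 encodes the invariant chain, the chaperone of class II pairs. Its levels were 2.64, 2.73 and 1.73 CPM in mutant THC libraries, 7.14, 4.08 and 6.62 CPM in mutant vehicle libraries, 3.51, 4.37 and 2.52 CPM in control THC libraries, and 2.24, 1.56 and 1.99 CPM in control vehicle libraries. The mutant vehicle libraries were all above the mutant THC and control vehicle libraries, while control THC 2, the highest control library, was above mutant vehicle 2, the lowest of its group. Behind these levels stood 67 to 96 counts per library in mutant THC, 151 to 272 in mutant vehicle, 90 to 182 in control THC and 57.97 to 85 in control vehicle. Cd74 was 2.52-fold lower in mutant THC than in mutant vehicle (log2 fold change -1.33 ± 0.273 SE) and 3.08-fold higher in mutant vehicle than in control vehicle (1.62 ± 0.276 SE). In bulk tissue, fewer cells that carry a gene and less of its RNA per cell cannot be told apart, and this holds for each level given here.

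**Figure D2:**
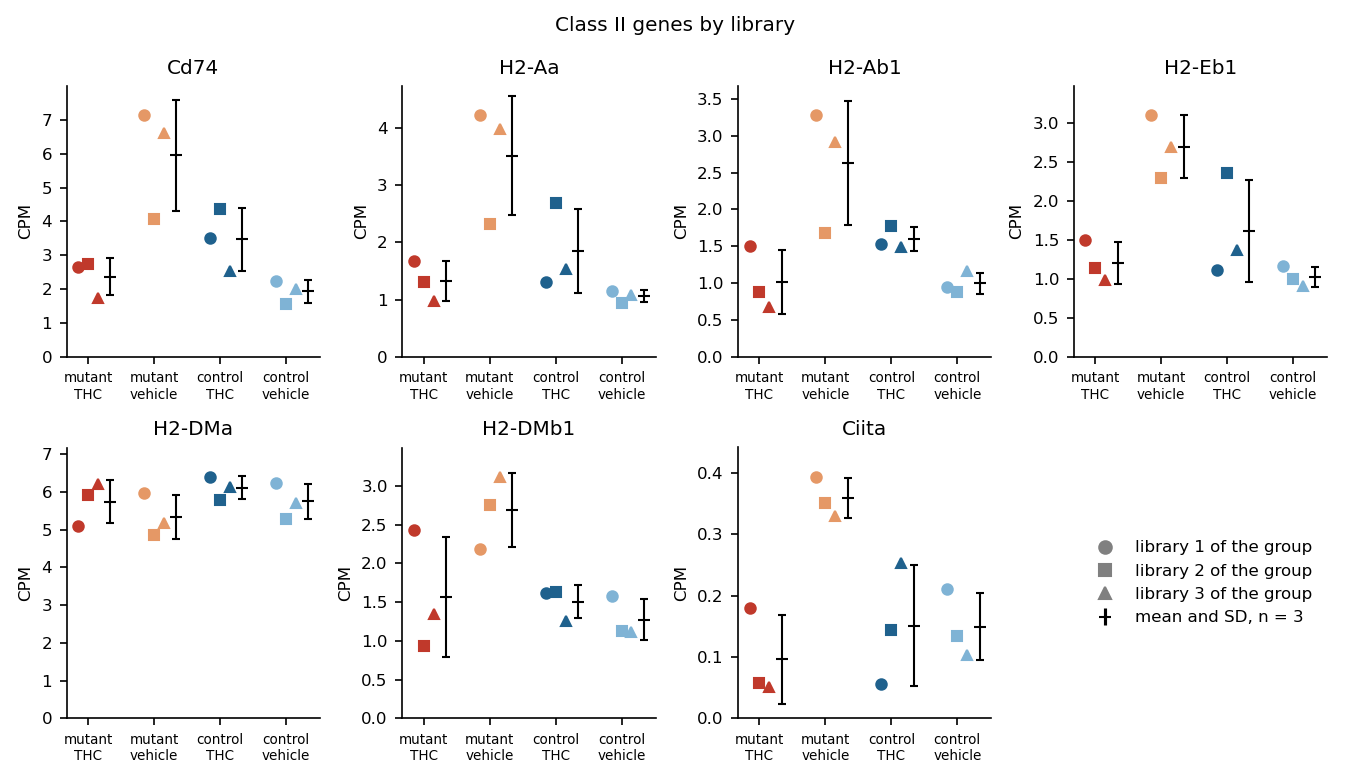
Level of each of the 7 genes in CPM (y axis, from 0, a scale of its own per panel), with 1 point per library and a bar at the group mean with its SD, for mutant THC, mutant vehicle, control THC and control vehicle libraries from left to right. For Cd74 the mutant vehicle libraries sit between 4.08 and 7.14, above the mutant THC libraries at 1.73 to 2.73 and the control vehicle libraries at 1.56 to 2.24, while for H2-DMa the 4 groups overlap.

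H2-Aa encodes the alpha chain of I-A, the class II molecule that C57BL/6 mice display. It was at 1.68, 1.31 and 0.981 CPM in mutant THC libraries, 4.23, 2.32 and 3.98 CPM in mutant vehicle libraries, 1.31, 2.69 and 1.54 CPM in control THC libraries, and 1.16, 0.94 and 1.09 CPM in control vehicle libraries. As for Cd74, mutant vehicle 2 was the lowest of its group and control THC 2 exceeded it. H2-Aa was 2.66-fold lower in mutant THC than in mutant vehicle (log2 fold change -1.41 ± 0.316 SE) and 3.3-fold higher in mutant vehicle than in control vehicle (1.72 ± 0.32 SE).

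H2-Ab1, on chromosome 17 from 34263227 to 34269418, encodes the beta chain that pairs with H2-Aa. Its levels were 1.5, 0.881 and 0.671 CPM in mutant THC libraries, 3.28, 1.68 and 2.92 CPM in mutant vehicle libraries, 1.53, 1.78 and 1.49 CPM in control THC libraries, and 0.948, 0.886 and 1.16 CPM in control vehicle libraries. Mutant THC 1 came close to mutant vehicle 2, and all 3 control THC libraries were above all control vehicle libraries. The log2 fold change was -1.37 ± 0.312 SE between mutant THC and mutant vehicle and 1.39 ± 0.311 SE between mutant vehicle and control vehicle.

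H2-Eb1 encodes the beta chain of I-E, which C57BL/6 mice transcribe but do not display, since their alpha chain gene for I-E is defective. It was at 1.5, 1.14 and 0.981 CPM in mutant THC libraries, 3.1, 2.3 and 2.69 CPM in mutant vehicle libraries, 1.11, 2.35 and 1.37 CPM in control THC libraries, and 1.16, 0.994 and 0.905 CPM in control vehicle libraries. The mutant vehicle libraries lay above every library of the other groups except control THC 2, which was between mutant vehicle 2 and mutant vehicle 3. H2-Eb1 was 2.24-fold lower in mutant THC than in mutant vehicle (log2 fold change -1.16 ± 0.276 SE) and 2.64-fold higher in mutant vehicle than in control vehicle (1.40 ± 0.278 SE).

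The chains kept about the same proportion to Cd74 in each group. Counts of H2-Aa per count of Cd74 averaged 0.561 ± 0.0788 in mutant THC, 0.588 ± 0.0164 in mutant vehicle, 0.533 ± 0.139 in control THC and 0.556 ± 0.0439 in control vehicle (SD, n = 3 each). H2-Ab1 gave 0.426 ± 0.127, 0.437 ± 0.0242, 0.477 ± 0.0978 and 0.526 ± 0.0888 in the same order of groups, and H2-Eb1 gave 0.517 ± 0.0872, 0.468 ± 0.0837, 0.467 ± 0.129 and 0.537 ± 0.0933. The group means of each ratio differed by less than 1 SD of the most variable group. The lowest single values were 0.373 for H2-Aa in control THC 1, 0.323 for H2-Ab1 in mutant THC 2 and 0.317 for H2-Eb1 in control THC 1.

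**Figure D3:**
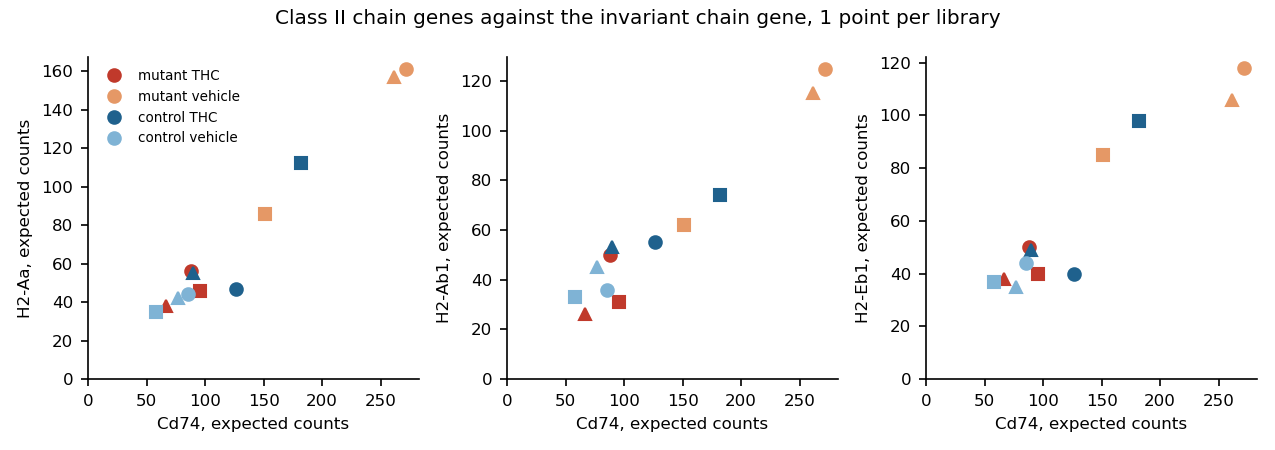
Expected counts of H2-Aa, H2-Ab1 and H2-Eb1 (y axes, from 0) against those of Cd74 (x axes, from 0), with 1 point per library coloured by group (circle for library 1, square for 2, triangle for 3). Each chain lies higher where Cd74 does, with mutant vehicle 1 at the upper right at 272 counts of Cd74 and the control vehicle libraries at the lower left at 57.97 to 85.

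H2-DMa and H2-DMb1 form DM, the editor that exchanges peptides on class II molecules in the endosome. H2-DMa, on chromosome 17 from 34119693 to 34139101, was at 5.11, 5.91 and 6.22 CPM in mutant THC libraries, 5.99, 4.86 and 5.17 CPM in mutant vehicle libraries, 6.41, 5.79 and 6.14 CPM in control THC libraries, and 6.24, 5.29 and 5.71 CPM in control vehicle libraries. The 4 groups overlapped, and the highest library was 1.32 times the lowest, against 3.33 to 7.63 times for the other 6 genes. The log2 fold change of H2-DMa was 0.11 ± 0.116 SE in mutant THC against mutant vehicle, with a 95% interval from -0.15 to 0.363, and -0.11 ± 0.116 SE in mutant vehicle against control vehicle.

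H2-DMb1 did not follow its partner. Its levels were 2.43, 0.938 and 1.34 CPM in mutant THC libraries, 2.18, 2.75 and 3.12 CPM in mutant vehicle libraries, 1.62, 1.63 and 1.26 CPM in control THC libraries, and 1.58, 1.13 and 1.11 CPM in control vehicle libraries. The mutant vehicle libraries lay above all control vehicle libraries, and mutant THC 1 lay inside the mutant vehicle range. The log2 fold change was -0.78 ± 0.307 SE in mutant THC against mutant vehicle and 1.08 ± 0.31 SE in mutant vehicle against control vehicle. The first of these was -1.23 without mutant THC 1 and -0.52 without mutant THC 2. H2-DMb1 has a near-identical neighbour, H2-DMb2, and fractional counts showed that reads had been shared between rows, so the split between the pair is uncertain. H2-DMb2 held 2.99 to 10 expected counts per library and did not pass the filter on low counts.

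Ciita encodes the transactivator on which the promoters of these genes depend. It had 6, 2 and 2 counts in mutant THC libraries, 15, 13 and 13 counts in mutant vehicle libraries, 2, 6 and 9 counts in control THC libraries, and 8, 5 and 4 counts in control vehicle libraries. The exact Poisson interval at 95%, which covers counting error alone, is 0.242 to 7.22 for 2 counts and 6.92 to 22.2 for 13 counts. The mutant vehicle libraries were above all other libraries. Ciita passed the filter on low counts through that group, and its log2 fold changes of -1.89 ± 0.546 SE in mutant THC against mutant vehicle and 1.24 ± 0.501 SE in mutant vehicle against control vehicle are read with that in view.

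Per kilobase of transcript, H2-DMa was the most abundant of the 7 genes in the control vehicle and control THC groups and in mutant THC, and Cd74 in mutant vehicle. On this scale of CPM per kilobase, Cd74 averaged 1.8 ± 0.421 in mutant THC, 4.52 ± 1.24 in mutant vehicle, 2.63 ± 0.703 in control THC and 1.46 ± 0.261 in control vehicle (SD, n = 3 each). H2-DMa averaged 3.47 ± 0.347, 3.22 ± 0.35, 3.69 ± 0.188 and 3.47 ± 0.287 in the same order of groups. Ciita was the lowest, at 0.0203 ± 0.0154 in mutant THC, 0.0757 ± 0.00688 in mutant vehicle, 0.0318 ± 0.0208 in control THC and 0.0316 ± 0.0117 in control vehicle. In mutant vehicle libraries, H2-Aa at 3.11 ± 0.918 and H2-Ab1 at 2.17 ± 0.695 lay within their spread of each other, as did H2-Ab1 and H2-DMb1 at 1.91 ± 0.338, and H2-Eb1 was at 1.61 ± 0.24. Lengths were the mean of the GENCODE vM21 transcripts matched to each row.

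The mutant mice given THC were next compared with control mice given THC, a contrast that did not itself choose the genes but shares its mutant THC libraries with one that did. The log2 fold change was -0.56 ± 0.274 SE for Cd74, -0.49 ± 0.319 for H2-Aa, -0.66 ± 0.315 for H2-Ab1, -0.43 ± 0.279 for H2-Eb1, -0.09 ± 0.116 for H2-DMa, 0.06 ± 0.313 for H2-DMb1 and -0.66 ± 0.611 for Ciita. None of the 7 passed the quasi-likelihood test of edgeR with Benjamini-Hochberg adjustment over 15802 genes, and the adjusted p was between 0.553 and 0.957. Unadjusted, 0 of the 7 and 1419 of the 15802 genes had a p under 0.05, and DESeq2 called 0 of the 7 and 7 genes in all. Over all genes, 0.00633% (1 gene) passed, and 5.7% lay lower in mutant THC without overlap, against 0 of the 7. Without control THC 2, the library of its group with choroid plexus markers, the value of Cd74 was -0.35, that of H2-Aa -0.11 and that of H2-Eb1 -0.05. H2-Ab1 was at -1.04 without mutant THC 1 and -0.43 without mutant THC 3, and H2-Aa at -0.31 without mutant THC 3. Ciita lay between -1.42 without mutant THC 1 and -0.11 without control THC 3, and leaving out mutant THC 2, mutant THC 3 or control THC 1 moved it to -0.41, -0.35 or -1.04.

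In control mice, THC libraries were compared with vehicle libraries, which also served in a comparison that chose the genes. All 7 fold changes were above 0: 0.85 ± 0.276 SE on the log2 scale for Cd74, 0.80 ± 0.323 for H2-Aa, 0.68 ± 0.314 for H2-Ab1, 0.67 ± 0.281 for H2-Eb1, 0.09 ± 0.116 for H2-DMa, 0.24 ± 0.315 for H2-DMb1 and 0.01 ± 0.561 for Ciita. None passed edgeR's quasi-likelihood test after Benjamini-Hochberg adjustment, with an adjusted p of 0.7 for Cd74 and of at most 0.999. Cd74, H2-Aa and H2-Ab1 were higher in 3 of 3 THC libraries than in any vehicle library. This held for 3 of the 7 genes, against 8.3% of all genes tested, and 0% of all genes passed the test. At an unadjusted p under 0.05 stood 3 of the 7 and 1106 of the 15802 genes, and DESeq2 called 0 of the 7 and 12 genes in all. Without control THC 2, the values were 0.65 for Cd74, 0.43 for H2-Aa, 0.59 for H2-Ab1 and 0.29 for H2-Eb1.

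In the comparisons that chose the genes, the same test called 0 of the 7 in mutant THC against mutant vehicle, where it called 0% of all genes, and 0 of the 7 in mutant vehicle against control vehicle, where it called 0.00633% of all genes. Lower in mutant THC than in mutant vehicle without overlap were 5 of the 7 (Cd74, the 3 chains and Ciita), against 4.4% of all genes. Higher in mutant vehicle than in control vehicle without overlap were 6 of the 7 (all but H2-DMa), against 15.3% of all genes. Ciita is included both times, although it passed the filter on low counts through the mutant vehicle libraries, which favours such a result. Since these contrasts chose the genes, nothing is read from the counts. They also depended on the tool. DESeq2 called 1 of the 7 (Cd74) among 3 genes in all in mutant THC against mutant vehicle, and 5 (Cd74, H2-Aa, H2-Ab1, H2-Eb1 and H2-DMb1) among 781 genes in all in mutant vehicle against control vehicle. In the same comparison edgeR fitted on its 6 libraries alone called those 5 among 523 genes in all.

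The median log2 fold change of the 7 genes was -1.33 in mutant THC against mutant vehicle (all genes tested, -0.00778), 1.39 in mutant vehicle against control vehicle (all genes, -0.00512), -0.49 in mutant THC against control THC (all genes, 0.00514) and 0.668 in control THC against control vehicle (all genes, 0.000408). The comparisons share groups and so are not independent of each other. The interaction, the effect of THC in mutant mice minus that in control mice, was -2.18 ± 0.388 SE on the log2 scale for Cd74, -2.21 ± 0.452 for H2-Aa, -2.05 ± 0.443 for H2-Ab1, -1.83 ± 0.394 for H2-Eb1, 0.02 ± 0.164 for H2-DMa, -1.02 ± 0.44 for H2-DMb1 and -1.90 ± 0.792 for Ciita. It is a description here, and edgeR called 0 of the 7 and 0% of all genes in it, while DESeq2 called 4 of the 7 among 34 genes in all.

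**Figure D4:**
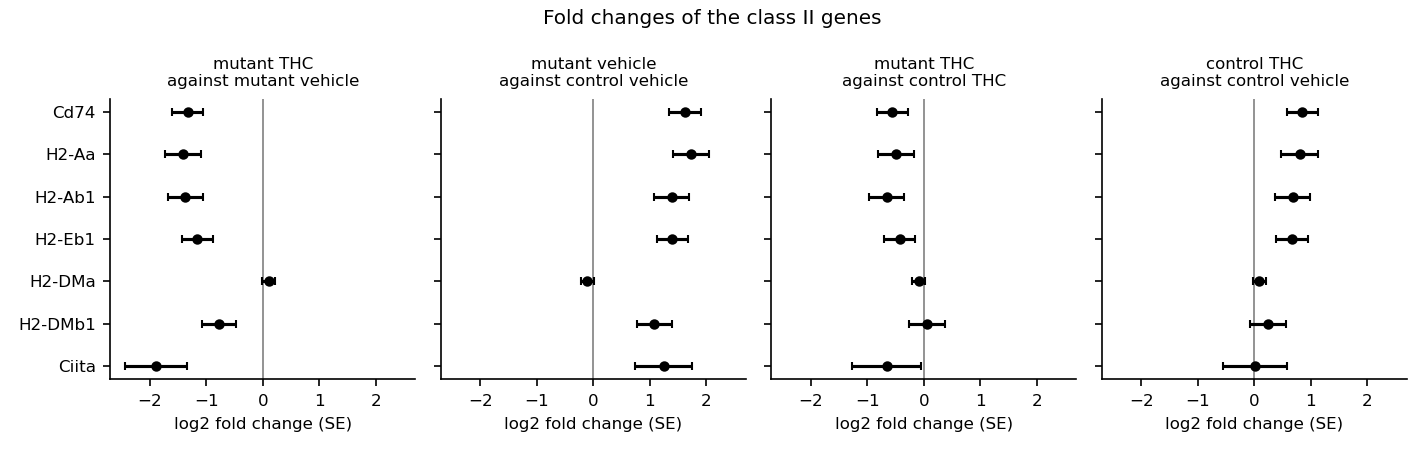
Log2 fold change of each gene (y axis, genes from top to bottom) with its SE as a bar to each side, in 1 panel per comparison with the group named first on top of the fold (x axis, log2 scale, a line at 0). Cd74 and the 3 chains lie at -1.41 to -1.16 in mutant THC against mutant vehicle and at 1.39 to 1.72 in mutant vehicle against control vehicle, and H2-DMa stays near 0 in every panel.

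The other genes of the pathway were described from lists made by role. No member of any list passed edgeR's test in any comparison. Of the chains and editors outside the 7, H2-Oa and H2-Ob, which form a brake on DM in B cells and other presenting cells, were at group means of 0.294 to 0.362 and 0.406 to 0.566 CPM, and their log2 fold changes in mutant vehicle against control vehicle were 0.03 ± 0.368 SE and 0.01 ± 0.303 SE. H2-Eb2 had 1 count in each of 2 libraries. The 7 DNA-binding partners of CIITA, among them Rfx5, Rfxap and Nfya, had a log2 median of 0.0739 in mutant THC against mutant vehicle and -0.032 in mutant vehicle against control vehicle. The smallest p in those comparisons belonged to Nfya, an NF-Y subunit, at 0.19 ± 0.113 SE and to Creb1, which binds beside the X box, at 0.09 ± 0.061 SE.

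Upstream, Ifng had 1 count in the whole series, in mutant THC 2. The 7 measured genes of its receptor and signalling had medians of -0.00257 in mutant THC against mutant vehicle and -0.102 in mutant vehicle against control vehicle. Irf1, a factor that interferon gamma induces and that acts on a Ciita promoter, had a log2 fold change of -0.39 ± 0.133 SE in mutant THC against mutant vehicle and -0.45 ± 0.133 SE in mutant THC against control THC (edgeR, Benjamini-Hochberg adjusted p = 0.806 and 0.552). Irf1 thus did not pass the test in either.

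The endosomal enzymes lay higher in mutant than in control vehicle libraries in 9 of 10 cases (log2 median 0.241), and 7 of the 10 did not overlap between the groups, against 15.3% of all genes. None passed the test. Ctsz, a carboxypeptidase of the lysosome, averaged 43.7 ± 2.1 CPM in mutant vehicle and 32.2 ± 2.71 CPM in control vehicle (SD, n = 3 each), a log2 fold change of 0.44 ± 0.0943 SE with an adjusted p of 0.156 in edgeR. Ctsd, an aspartic protease, had 0.53 ± 0.137 SE with the same adjusted p. Unlike Cd74, Ctsz was as high in mutant THC libraries, at 41.7 ± 5.28 CPM (SD, n = 3), and the median of the 10 enzymes in mutant THC against mutant vehicle was -0.0889.

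Of 7 genes beside the class II genes on chromosome 17, 6 passed the filter on low counts. Their median log2 fold change was -0.226 in mutant THC against mutant vehicle and 0.276 in mutant vehicle against control vehicle. Tap2, a transporter that loads class I molecules, was at 8.71, 8.21 and 7.02 CPM in mutant THC libraries, 9.71, 10.3 and 12.1 CPM in mutant vehicle libraries, 7.97, 9.94 and 8.89 CPM in control THC libraries, and 9.29, 8.65 and 8.58 CPM in control vehicle libraries. Like Cd74 it was highest in mutant vehicle libraries by group mean, but lowest in mutant THC and not in control vehicle libraries. Its log2 fold change was -0.42 ± 0.118 SE in mutant THC against mutant vehicle and 0.28 ± 0.117 SE in mutant vehicle against control vehicle. The costimulatory genes and the receptors of class II on T cells had medians of 0.0424 and 0.0667 in those comparisons. Among them Cd4 stood out at 30.28 CPM in mutant THC 3 and 3.58 CPM in mutant vehicle 3, the libraries with striatal markers, against at most 0.27 CPM elsewhere. Mif, Ddt and their receptors, for which CD74 also serves at the cell surface, had medians of -0.0778 and -0.0598.

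Markers of the cells that could carry class II were measured beside these results. The 10 microglial markers summed to 473.9 to 508.4 CPM in mutant THC, 482.6 to 502.9 CPM in mutant vehicle, 430.1 to 469.3 CPM in control THC and 423.2 to 517.6 CPM in control vehicle libraries, and their fold changes had a log2 median of 0.00951 in mutant THC against mutant vehicle and 0.0508 in mutant vehicle against control vehicle. Aif1, the gene of the microglial protein IBA1, averaged 5.18 ± 0.705 CPM in mutant THC, 5.35 ± 0.119 CPM in mutant vehicle, 4.47 ± 0.447 CPM in control THC and 4.94 ± 0.558 CPM in control vehicle (SD, n = 3 each). The microglial sums of the groups overlapped in both comparisons, while Cd74 did not.

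Markers of border macrophages, the macrophages of vessels, meninges and choroid plexus, differed between groups in the direction of Cd74, and none passed the test. Their sum was 36.03 to 50.8 CPM in mutant THC, 48.25 to 60.73 CPM in mutant vehicle, 44.92 to 56.83 CPM in control THC and 42.6 to 47.68 CPM in control vehicle libraries. These sums overlapped in mutant THC against mutant vehicle, as the microglial sums did, and not in mutant vehicle against control vehicle. In mutant THC against mutant vehicle 8 of 9 lay below 0 on the log2 scale, with a median of -0.606, and in mutant vehicle against control vehicle 9 of 9 lay above 0, with a median of 0.534. Mrc1, a mannose receptor of these cells, was at 13.1, 10.4 and 7.87 CPM in mutant THC libraries, 16.5, 12 and 16.7 CPM in mutant vehicle libraries, 12.6, 10.5 and 13.6 CPM in control THC libraries, and 11.6, 10.7 and 10.4 CPM in control vehicle libraries. Mutant vehicle 2 was the lowest mutant vehicle library for Mrc1, as for Cd74 and the chains. F13a1, a transglutaminase gene of macrophages, had a log2 fold change of -0.71 ± 0.205 SE in mutant THC against mutant vehicle and 0.62 ± 0.204 SE in mutant vehicle against control vehicle. Their part in the level of Cd74 was not tested.

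Ccr2, a chemokine receptor of monocytes and of cells derived from them, had 11.05, 9.04 and 9 expected counts in mutant THC libraries, 39, 18 and 29.19 in mutant vehicle libraries, 17.09, 17.07 and 12 in control THC libraries, and 6.02, 8.06 and 11 in control vehicle libraries. Its log2 fold change was -1.45 ± 0.333 SE in mutant THC against mutant vehicle and 1.76 ± 0.339 SE in mutant vehicle against control vehicle, and mutant vehicle libraries overlapped neither of those groups. The 7 markers of monocytes and neutrophils summed to 1.62 to 4.42 CPM in mutant THC, 2 to 3.94 CPM in mutant vehicle, 1.49 to 2.55 CPM in control THC and 0.994 to 1.87 CPM in control vehicle libraries. Of these markers 5 passed the filter, with a log2 median of -0.188 in mutant THC against mutant vehicle (4 of 5 below 0). Ccr2 was the lowest of them there, and the highest was at 0.0126. In mutant vehicle against control vehicle the median was 1.73 (5 of 5 above 0). The dendritic cell markers, 6 of 9 measured above the filter, summed to 10.92 to 16.22 CPM in mutant THC, 14.59 to 16.75 CPM in mutant vehicle, 15.11 to 15.87 CPM in control THC and 16.06 to 16.67 CPM in control vehicle libraries. Their log2 median was -0.517 in mutant THC against mutant vehicle (5 of 6 below 0), beside -0.606 for border macrophage markers. In mutant vehicle against control vehicle it was 0.191 (3 of 6 above 0). B cell markers, 1 of 6 above the filter, summed to at most 0.656 CPM, and T cell markers, 0 of 6 above it, to at most 0.558 CPM in any library. The part of monocytes and dendritic cells in the level of Cd74 was not tested.

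**Figure D5:**
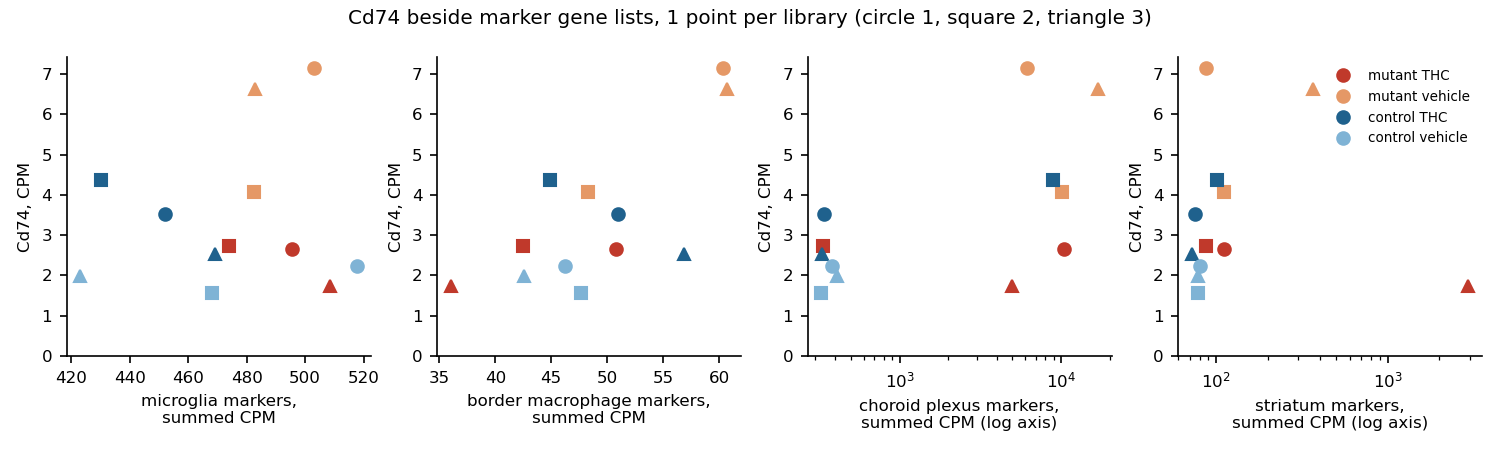
Level of Cd74 (y axis, CPM) against the summed level of microglial, border macrophage, choroid plexus and striatal markers (x axes, CPM, logarithmic for the last pair), with 1 point per library coloured by group (circle for library 1, square for 2, triangle for 3). Mutant vehicle libraries lie at 48.25 to 60.73 CPM for border macrophage markers and at 6115 to 16870 CPM for choroid plexus markers. For both lists they lie above the control vehicle libraries and overlap both THC groups. For microglial markers they lie within the range of the other groups.

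Choroid plexus tissue was unevenly present and its markers went with the groups in part. Ttr, the transthyretin gene that choroid plexus epithelium expresses at very high level, was at 5969, 33.97 and 2857 CPM in mutant THC libraries, 3639, 5241 and 9979 CPM in mutant vehicle libraries, 48.49, 5090 and 54.33 CPM in control THC libraries, and 53.4, 20.07 and 84.39 CPM in control vehicle libraries. All 3 mutant vehicle libraries were high in Ttr and all 3 control vehicle libraries low, and each THC group held both kinds. With the mean log2 level of the 12 choroid plexus markers as a covariate, Cd74 was at -1.28 in mutant THC against mutant vehicle and at 1.49 in mutant vehicle against control vehicle. Between mutant vehicle and control vehicle, H2-Eb1 was then at 0.87, against 1.40 without the covariate, and H2-DMb1 at 0.36, against 1.08. Over all alternative settings, the lowest values there were 1.22 for H2-Aa, 1.10 for H2-Ab1 and 0.897 for Ciita. The covariate was 5.771 to 7.435 in mutant vehicle and 1.503 to 2.269 in control vehicle libraries. Choroid plexus tissue and genotype thus cannot be told apart between these groups. In mutant THC 3 and mutant vehicle 3 the striatal gene Drd2 was at 52.1 and 4.57 CPM. Without these libraries, Cd74 was at -1.06 in mutant THC against mutant vehicle and at 1.53 in mutant vehicle against control vehicle. The part of choroid plexus or striatal tissue in the level of Cd74 was not tested beyond these values.

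The genes whose levels followed that of Cd74 most closely were looked for among 14050 genes with a mean of at least 1 CPM. Over the 12 libraries, Pearson's r of log2 levels with Cd74 was 0.931 for Vim, which encodes the intermediate filament vimentin, 0.908 for Serpinb9, an inhibitor of granzyme B, 0.905 for B2m, the light chain of class I molecules, 0.903 for Shc1 and 0.901 for Slc35a3. After group means were taken out, the highest were B2m at 0.92, Hmgn5 at 0.88, Camkmt at 0.871, Twist1 at 0.867, Ccdc47 at 0.861 and Bcat2 at 0.853. B2m was the one gene on both lists. It averaged 65.5 CPM in mutant THC, 74.1 CPM in mutant vehicle, 64.1 CPM in control THC and 58.1 CPM in control vehicle libraries. Vim averaged 47.6, 61.1, 50.1 and 42.2 CPM in the same order of groups.

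Among the 7 genes themselves, r with Cd74 over the 12 libraries was 0.959 for H2-Aa, 0.925 for H2-Ab1, 0.918 for H2-Eb1, 0.711 for H2-DMb1, 0.599 for Ciita and -0.18 for H2-DMa. With group means taken out it was 0.824 for H2-Aa, 0.742 for H2-Ab1, 0.633 for H2-Eb1, 0.194 for H2-DMb1, 0.19 for H2-DMa and 0.0288 for Ciita. The 3 chains thus followed Cd74 between groups and from library to library within a group, and the DM subunits and Ciita did so less within groups, at counts that for Ciita never exceeded 15. All genes of a library share its tissue makeup and depth, and tissue makeup differed between libraries, with choroid plexus markers summing to 328.5 to 16870 CPM. The part of this in the correlations was not tested, and the correlations are descriptions. Mutant vehicle 1 was the highest of all libraries for 5 of the 7 genes (Cd74, the 3 chains and Ciita), mutant vehicle 3 for H2-DMb1 and control THC 1 for H2-DMa.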

How the data were processed

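The deposited table holds expected counts for genes, as RSEM estimates them, with no normalisation by the authors. The submitters' processing notes name RSEM 1.2.21 with Bowtie2 2.2.2, CASAVA 1.8.4, edgeR 3.10.2 and FastQC, with mm10 as the build, and do not say whether counting used strand. Between 27.2% and 29.4% of the deposited values per library were not whole numbers (tolerance 0.001), since RSEM shares ambiguous reads between rows. Row names were matched to symbols through RefSeq (GRCm38.p6): 23007 rows had 1 symbol, 7 several and 368 none, and the last held 1% of all counts.

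Expected counts were rounded, filtered with filterByExpr (15802 genes tested, all 7 members among them) and given TMM factors, which lay between 0.989 and 1.01. Tests used edgeR 4.0.16 (glmQLFit with robust estimation and glmQLFTest) with 4 group means, 12 libraries and 8 residual degrees of freedom, in R 4.3.3, adjusted by Benjamini-Hochberg over all genes tested, at a threshold of 0.05. Fold changes have the group named first on top. The script was tested on simulated data. Levels are CPM from the TMM-scaled libraries, and correlations use log2 CPM with a prior count of 2. Alternatives were DESeq2 1.42.0, its size factors, no filter, only the groups compared, choroid plexus markers as a covariate, each library left out, and 2 libraries left out together, the last chosen after seeing the data.

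The members and the gene lists were chosen with earlier results of these data known. The 7 members are always given. In other lists, genes past the threshold are named, or else the 2 with the smallest p in the comparison described, together with the 6 genes most correlated with Cd74 over all libraries (1 of them is not reported here) and the 6 within groups; Ttr, Drd2, Disc1 and Aif1 serve as checks. H2-DMb2, H2-Eb2, Rfx5, Mif, Tap2 in other comparisons, and Cd4 as a single high value, were named for their role or after their values were seen. No pair of libraries among 66 agreed within sampling noise, the lowest chi-square per gene being 12. The labels do not say outright that each library is another mouse, and a p-value then covers library-to-library spread, which may be technical. The outcome for astrocyte, neuron, endothelial, mural and meningeal, and blood markers is given in the closing part.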

Additional observations from a re-analysis of the deposited data

Results flagged for a closer look

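In mutant mice every THC library lay below every vehicle library for Cd74, H2-Aa and H2-Ab1, while in control mice every THC library lay above every vehicle library for the same 3 genes. The effect of THC in mutant mice minus that in control mice was -2.18 on the log2 scale for Cd74, -2.21 for H2-Aa and -2.05 for H2-Ab1. The opposite directions are what drew attention to them, but other genes shared them. From vehicle to THC, the median log2 fold change of the 12 choroid plexus markers was -1.01 in mutant and 3.2 in control mice. All 12 lay below 0 in mutant and above 0 in control mice. Mural and meningeal markers had -0.655 (10 of 11 below 0) and 0.288 (10 of 11 above 0). Blood markers had -0.0921 (5 of 5 below 0) and 0.451 (5 of 5 above 0). No choroid plexus marker was without overlap in mutants. The part of tissue in this was not tested. Of all genes tested, 4.4% lay lower without overlap in mutant THC than in mutant vehicle libraries. A share of 8.3% lay higher without overlap in control THC than in control vehicle libraries. How many of all genes did both was not computed. The difference was not tested on data independent of the choice of genes: edgeR called it for 0 of the 7 genes and DESeq2 for 4, but the comparisons it is built from were known when the genes were chosen. The vehicle libraries of each genotype enter both that difference and the genotype comparison.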

How the results depend on the processing

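The main test called 0 of the 7 genes in each of 5 comparisons, and so did the other settings, with 2 exceptions. DESeq2 called 1 in mutant THC against mutant vehicle, 5 in mutant vehicle against control vehicle and 4 in the interaction, and edgeR on only the 2 groups compared called 5 in mutant vehicle against control vehicle; the cause was not tested. Over all genes, DESeq2 called 3 in mutant THC against mutant vehicle, 781 in mutant vehicle against control vehicle, 7 in mutant THC against control THC, 12 in control THC against control vehicle and 34 in the interaction, against 0, 1, 1, 0 and 0 in edgeR, and edgeR on the 6 libraries alone called 523 in mutant vehicle against control vehicle. Without mutant THC 1, edgeR called 3 genes in mutant THC against mutant vehicle, 6 in mutant vehicle against control vehicle and 10 in the interaction. Cd74, H2-Aa, H2-Ab1 and H2-Eb1 kept their direction in every comparison under every setting tried. Leaving out 1 library moved Cd74 between -1.54 and -1.15 in mutant THC against mutant vehicle and between 1.47 and 1.84 in mutant vehicle against control vehicle. Reversals were in values near 0. With the choroid plexus covariate, H2-DMa was at 0.0397 in mutant vehicle against control vehicle and -0.0864 in the interaction, H2-DMb1 at -0.21 in mutant THC against control THC and Ciita at -0.12 in control THC against control vehicle. Without both libraries with striatal genes, a setting chosen after seeing the data, the interaction of H2-DMa was -0.0654. With 1 library left out, it lay between -0.0487 and 0.107, H2-DMb1 in mutant THC against control THC between -0.39 and 0.32, and Ciita in control THC against control vehicle between -0.53 and 0.38. No paired analysis was possible because the title numbers do not recur between groups. Counts of 15 or fewer per library limit what can be said of Ciita.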

Other observations

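Marker groups of other cells were measured in the same libraries. Astrocyte markers summed to 4435 to 5660 CPM in mutant THC, 5184 to 5543 CPM in mutant vehicle, 5052 to 5183 CPM in control THC and 5616 to 5696 CPM in control vehicle libraries. The 8 astrocyte markers had a median log2 fold change of -0.044 in mutant THC against mutant vehicle. Gfap, the intermediate filament of reactive astrocytes, had -0.34 ± 0.15 SE there (edgeR, Benjamini-Hochberg adjusted p = 0.806). It was at 468.7, 431.7 and 285.5 CPM in mutant THC and 551.3, 484.2 and 463.3 CPM in mutant vehicle libraries. The groups overlapped, and the lowest value was that of mutant THC 3, a library with striatal markers. Mural and meningeal markers summed to 202.2 to 343.1 CPM in mutant THC, 336 to 396.9 CPM in mutant vehicle, 271.7 to 302.2 CPM in control THC and 204 to 232.2 CPM in control vehicle libraries, and 10 of their 11 genes lay below 0 in mutant THC against mutant vehicle, with a median of -0.655, while 9 of the 11 lay above 0 in mutant vehicle against control vehicle, with a median of 0.461. Blood markers, the haemoglobins and Alas2, summed to 538.4 to 688.8 CPM in mutant THC, 469.5 to 829.4 CPM in mutant vehicle, 394.6 to 601.9 CPM in control THC and 322.6 to 455.2 CPM in control vehicle libraries. All 5 lay below 0 in mutant THC against mutant vehicle, with a median of -0.0921, and above 0 in mutant vehicle against control vehicle, with a median of 0.793. In mutant vehicle against control vehicle all 5 had an unadjusted p under 0.05, as 2815 of the 15802 genes did, and none passed edgeR's test after adjustment. The part of these cells in the level of Cd74 was not tested. The 6 endothelial markers had a median log2 fold change of 0.144 in mutant THC against mutant vehicle and 0.0659 in mutant vehicle against control vehicle, and the 6 neuronal markers 0.0493 and -0.205.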
